A study of Homo sapiens with 6 samples.

Results

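The activating transcription factor ATF4, its partner factors, its classical target genes, the enzymes of serine synthesis and of one-carbon metabolism, and the cytosolic aminoacyl-tRNA synthetases were followed in A549 cells after knockdown of the lysine methyltransferase KMT9. The set held 35 genes, listed by name for their known function, with earlier results of these data known. No measured value entered the rule that names them. They were 35 of the 23180 gene symbols in the deposited table, and all 35 were among the 13877 genes that passed the filter on low counts. They fell by role into 5 transcription factors, 5 stress effectors and secreted or surface proteins, 5 enzymes of asparagine, proline and cysteine synthesis, 9 enzymes of serine and one-carbon metabolism, and 11 cytosolic synthetases.

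A549 is an established human lung adenocarcinoma cell line, labelled wild type and used at passage 11. RNA-seq of total RNA was carried out on 6 samples, 3 transfected with a control siRNA (siControl) and 3 with siKMT9α#1, an siRNA against the KMT9α subunit, at 65 nM and with harvest 3 days after transfection. KMT9 is a heterodimer of KMT9α, encoded by N6AMT1, and KMT9β, encoded by TRMT112, and it monomethylates histone H4 at lysine 12. The comparison asked which transcripts changed when KMT9α was depleted. Every sample received an siRNA and the transfection reagent, and siControl was the only control. One siRNA was used, so a change that follows from KMT9α and a change that follows from this siRNA's other targets cannot be told apart.

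ATF4 is the main transcription factor of the integrated stress response. Kinases that sense amino acid shortage, unfolded proteins in the endoplasmic reticulum, double-stranded RNA or heme shortage phosphorylate the translation factor eIF2α, which lowers translation of most mRNAs but raises that of ATF4, so that the ATF4 protein can change without a change of its mRNA. ATF4 then binds with C/EBP partners to a composite element in the genes for amino acid transporters, for asparagine and serine synthesis, and for the synthetases that load amino acids onto tRNAs. In lung adenocarcinoma lines this program is known for feeding serine and glycine into nucleotide synthesis.

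The composite C/EBP-ATF response element was looked up in promoter sequences as TGATGNAAN, on both strands. Of the 35 genes, 29 had a promoter in RefSeq's GRCh38.p14 (250 bases before to 50 bases after each annotated start), and 10 of these 29 (34.5%) held the element. Of all 27305 genes with such a promoter, 1215 (4.45%) held it. The 35 genes were listed for known function, ATF4 targets among them, so their higher share is not independent of that choice. The 10 windows are printed to show which members carry it and how alike the copies are. Each has 29 bases on the coding strand of its gene, 5′ to 3′, with the 9 bases of the element in capitals. Where the element lies on the opposite strand, the capitals show its reverse complement, which ends in CATCA.

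CEBPG (chr19:33374061-33374089, plus strand): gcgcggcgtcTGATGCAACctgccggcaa
CHAC1 (chr15:40953251-40953279, plus strand): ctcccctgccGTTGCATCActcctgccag
ASNS (chr7:97872458-97872486, minus strand): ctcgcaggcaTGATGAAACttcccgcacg
MTHFD1L (chr6:150866347-150866375, plus strand): ccgccggctcTGATGCAATcgcgccgggc
AARS (chr16:70289676-70289704, minus strand): ttttctcgcaGTTGCATCAgccaagttag
CARS (chr11:3057408-3057436, minus strand): cggggcggcgGTTGCATCAgattctagga
GARS (chr7:30594834-30594862, plus strand): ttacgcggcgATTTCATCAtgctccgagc
IARS (chr9:92293693-92293721, minus strand): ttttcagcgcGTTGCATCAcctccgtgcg
NARS (chr18:57621804-57621832, minus strand): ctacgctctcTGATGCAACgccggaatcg
TARS (chr5:33440956-33440984, plus strand): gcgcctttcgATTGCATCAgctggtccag

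Of these 10 genes, 6 encode synthetases and 1 encodes the factor CEBPG. A match is only a run of letters. The start sites of PYCR1, PSPH, SHMT2, ALDH1L2, LARS and YARS were not searched.

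The targeted gene N6AMT1 was measured first. It had 10.2, 10.9 and 11.4 CPM (counts scaled to library depth with TMM factors) in siControl and 2.87, 3.22 and 3.35 CPM in siKMT9α#1. The groups did not overlap, and N6AMT1 fell by 1.77 on the log2 scale, with a standard error of 0.12. Its adjusted p was 1.42e-10 in the quasi-likelihood test of edgeR, corrected by Benjamini-Hochberg over all genes tested, and the same test gave every adjusted p that follows. Totals with 1 transcript per gene were 15551780 to 18568634 counts in siControl and 13740098 to 19832394.5 in siKMT9α#1. Of 12 A549 and lung epithelial markers, 11 stood above 1 CPM in siControl and 10 in siKMT9α#1, where EPCAM had 0.572 CPM against 3.85 CPM in siControl. They summed to 9498 to 9928 CPM in siControl and to 7153 to 7282 CPM in siKMT9α#1. Most of these markers were lower in siKMT9α#1, but not all. ALDH1A1 had a mean of 1949 CPM in siControl and 3170 CPM in siKMT9α#1, and ALDH3A1 had 24.2 and 81.6 CPM. Fibroblast markers summed to 10.9 to 13.4 CPM in siControl and 6.94 to 8.32 CPM in siKMT9α#1, with COL1A2 at 0, and all 5 endothelial markers stood below 1 CPM. Leukocyte markers summed to 83.1 to 89.6 CPM in siControl and 29.8 to 31.3 CPM in siKMT9α#1, with CD3E at 0. Most of that sum came from CD68, with a mean of 80.6 CPM in siControl and 27.8 CPM in siKMT9α#1. The part of these markers in the results was not tested. Bulk RNA does not tell fewer cells of a kind from less RNA per cell.

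Most of the 35 genes were lower after KMT9α knockdown, but the 5 groups split within themselves. By an adjusted p under 0.05, 23 of the 35 genes fell, 8 rose and 4 did not pass. Among all 13877 genes tested, 38.5% fell and 37.1% rose by the same rule. At the study's threshold, a p under 1e-08 with an absolute log2 fold change over 0.26, 11 of the 35 were lower and 4 were higher. Of all genes tested, 10.7% were lower and 13.5% higher by that rule. The threshold was applied here to the quasi-likelihood test, so genes past it are not the study's own calls. Their median log2 fold change was -0.29, against -0.01 over all genes tested. The values of siKMT9α#1 lay wholly below those of siControl for 24 genes and wholly above for 8, and 77% of all genes tested did not overlap in either direction.

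**Figure D1:**
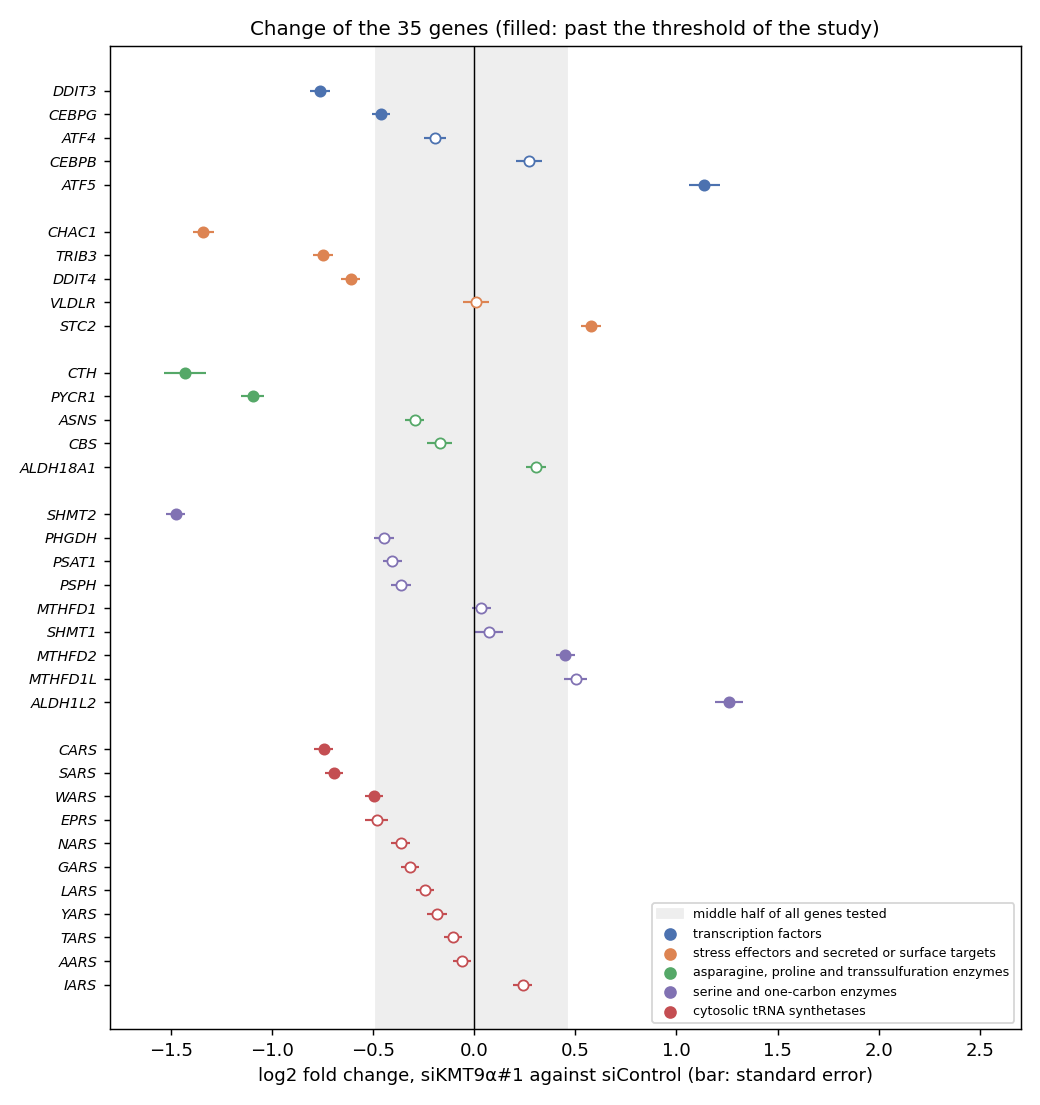
Log2 fold change of siKMT9α#1 against siControl (horizontal axis, with the standard error as a bar) for the 35 genes, coloured by role, 3 samples per group. Filled points passed the study's threshold, and the grey band spans the quartiles of all genes tested, -0.49 to 0.46. SHMT2, CTH, CHAC1 and PYCR1 lie farthest to the left and ALDH1L2 and ATF5 farthest to the right.

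The 5 transcription factors moved in both directions. ATF4 itself, on chromosome 22 of hg19 (chr22:39916569-39918691, plus strand), had 819.9, 862.5 and 839.2 CPM in siControl and 769.5, 758.1 and 679.1 CPM in siKMT9α#1. Every siKMT9α#1 sample was lower than every siControl sample, and the third of them was the lowest. ATF4 fell by 0.19 on the log2 scale (standard error 0.05, adjusted p = 0.00277). With offsets for GC content and length its log2 fold change was -0.04 (adjusted p = 0.381), so the call for ATF4 depends on that choice. With library size alone it was -0.30.

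DDIT3, which encodes CHOP, the factor that carries prolonged stress towards cell death, had 132.5, 141.9 and 134.7 CPM in siControl. In siKMT9α#1 it had 78.9, 83.0 and 79.3 CPM. The groups were far apart, and DDIT3 fell by 0.76 (standard error 0.05, adjusted p = 4.39e-11). Its 6 listed transcripts gave log2 fold changes of -0.80 to -0.76. The deposited span of DDIT3 (chr12:57910371-57914300, minus strand) overlaps that of MARS, the methionyl-tRNA synthetase gene, which had a log2 fold change of -0.67. Whether the counting used the strand is not given in the sources used here.

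ATF5, a factor related to ATF4 that also takes part in the mitochondrial stress response, moved the other way. It had 18.0, 18.7 and 19.3 CPM in siControl and 45.8, 40.3 and 37.8 CPM in siKMT9α#1. The lowest siKMT9α#1 sample was well above the highest siControl sample, and ATF5 rose by 1.14 (standard error 0.08, adjusted p = 7.72e-11). The span of ATF5 (chr19:50431959-50437193, plus strand) overlaps NUP62, which had 86.0 CPM in siControl and 87.3 CPM in siKMT9α#1, with overlapping groups. It also overlaps IL4I1, with 4.23 and 5.12 CPM and overlapping groups, and MIR4751, with 0.981 and 1.81 CPM and a log2 fold change of 0.82 and groups that did not overlap. The part of these overlaps in the value for ATF5 was not tested. The 2 remaining factors are C/EBP partners of ATF4. CEBPG fell by 0.46 (adjusted p = 2.01e-08) and CEBPB rose by 0.27 (adjusted p = 0.000637). With offsets for GC content and length the value for CEBPB was 0.49, and with library size alone it was 0.17.

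Of the stress effectors, 3 fell, 1 rose and 1 did not pass, against 38.5% lower and 37.1% higher among all genes tested. CHAC1, which breaks down glutathione and is a common readout of ATF4 and CHOP activity, had 128.8, 133.3 and 122.0 CPM in siControl and 52.5, 50.8 and 48.9 CPM in siKMT9α#1. The highest siKMT9α#1 sample was far below the lowest siControl sample. CHAC1 fell by 1.34 (standard error 0.05, adjusted p = 3.10e-14), the third largest fall of the 35 genes.

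TRIB3, a pseudokinase that CHOP induces and that restrains AKT, had 578.0, 632.3 and 611.3 CPM in siControl and 367.9, 361.0 and 356.5 CPM in siKMT9α#1. The groups stood apart, and TRIB3 fell by 0.75 (standard error 0.05, adjusted p = 4.12e-11). DDIT4, also called REDD1, an inhibitor of mTORC1, fell by 0.61 (adjusted p = 6.37e-10). With offsets for GC content and length DDIT4 had a log2 fold change of -0.41.

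STC2, a secreted glycoprotein hormone induced by endoplasmic reticulum stress, was the stress effector that rose. It had 1212.3, 1105.6 and 1154.5 CPM in siControl and 1699.0, 1690.4 and 1793.8 CPM in siKMT9α#1. The groups did not overlap, and STC2 rose by 0.58 (standard error 0.05, adjusted p = 4.30e-09). With offsets for GC content and length it was 0.35. VLDLR, a lipoprotein receptor, had overlapping groups and a log2 fold change of 0.01 (95% interval -0.11 to 0.13, adjusted p = 0.891).

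**Figure D2:**
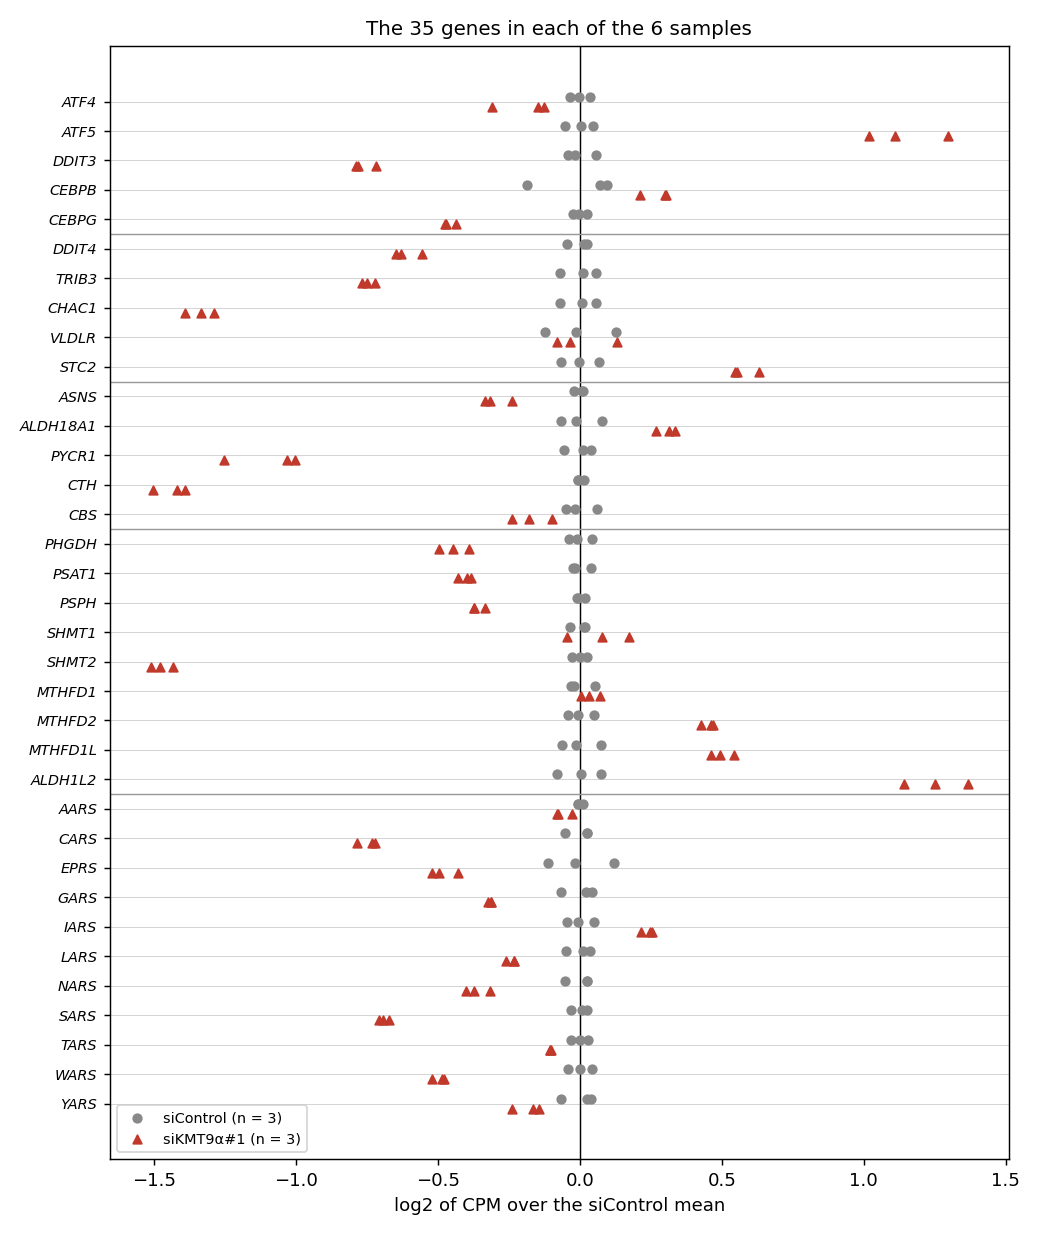
CPM of the 35 genes in each of the 6 samples, as the log2 ratio to the gene's siControl mean (horizontal axis), with genes in rows ordered by role (grey lines part the 5 roles), siControl as grey circles and siKMT9α#1 as red triangles. The circles and triangles overlap for VLDLR, SHMT1 and MTHFD1 and stand apart for the other 32 genes.

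The enzymes of asparagine, proline and cysteine synthesis fell for 4 of 5 genes, against 38.5% lower and 37.1% higher among all genes tested. ASNS, asparagine synthetase, the textbook ATF4 target, had 400.4, 400.9 and 391.9 CPM in siControl and 315.8, 319.8 and 337.3 CPM in siKMT9α#1. The groups did not overlap, and ASNS fell by 0.29 (standard error 0.05, adjusted p = 1.15e-05). Its 6 transcripts gave log2 fold changes of -0.29 to -0.28. ASNS carries the element in the window printed for it.

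The proline branch split between its enzymes. PYCR1, the mitochondrial enzyme of the last step of proline synthesis, had 236.7, 252.9 and 247.9 CPM in siControl and 122.7, 120.3 and 103.3 CPM in siKMT9α#1. The third siKMT9α#1 sample was the lowest, and PYCR1 fell by 1.09 (standard error 0.06, adjusted p = 2.76e-12). ALDH18A1, which makes the precursor upstream of PYCR1, rose by 0.31 (standard error 0.05, adjusted p = 1.48e-05), and with library size alone by 0.20. The ratio of PYCR1 to ALDH18A1, per kilobase of transcript and chosen after the values were seen, was 2.26 to 2.67 in siControl and 0.825 to 1.01 in siKMT9α#1.

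Both genes of transsulfuration, the route from homocysteine to cysteine, fell, but by different amounts. CTH, the enzyme that releases cysteine, had 13.2, 13.2 and 13.4 CPM in siControl and 4.69, 4.97 and 5.07 CPM in siKMT9α#1. The samples within a group lay close together, and CTH fell by 1.43 (standard error 0.10, adjusted p = 2.60e-10). CBS, the enzyme of the step before it, had a log2 fold change of -0.17 (adjusted p = 0.0172). CBS lost its call without the third siControl sample (-0.13) and without the first siKMT9α#1 sample (-0.14), in DESeq2 (-0.16), and with offsets for GC content and length (-0.06).

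The 9 enzymes of serine and one-carbon metabolism divided most evenly, with 4 lower, 3 higher and 2 that did not pass. That split is near the one of all genes tested, with 38.5% lower and 37.1% higher. The 3 enzymes that make serine from a glycolytic intermediate fell together. PHGDH, the first of them, had 182.2, 185.9 and 192.8 CPM in siControl and 142.5, 132.6 and 137.2 CPM in siKMT9α#1. The groups did not overlap, and PHGDH fell by 0.44 (standard error 0.05, adjusted p = 8.24e-08). PSAT1, the transaminase of the second step, fell by 0.40 (adjusted p = 1.52e-07), and PSPH, the phosphatase of the last step, fell by 0.36 (adjusted p = 1.34e-06). None of these 3 passed the study's threshold in the quasi-likelihood test. With the likelihood-ratio test of edgeR all 3 passed it, with adjusted p of 1.57e-16 for PHGDH, 1.02e-15 for PSAT1 and 3.31e-11 for PSPH. Their failure to pass thus depends on the choice of test.

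SHMT2, the mitochondrial serine hydroxymethyltransferase that splits serine into glycine and a one-carbon unit, had the largest fall of the 35 genes. It had 264.2, 274.3 and 269.2 CPM in siControl and 96.6, 99.8 and 94.5 CPM in siKMT9α#1. The spread within each group was small beside this gap. SHMT2 fell by 1.47 (standard error 0.05, adjusted p = 1.65e-15), and 4.84% of all genes tested had a lower log2 fold change. Its 8 transcripts gave -1.52 to -1.47. The span of SHMT2 (chr12:57623356-57628718, plus strand) overlaps NDUFA4L2, which had 7.34 CPM in siControl and 4.22 CPM in siKMT9α#1. SHMT1, the cytosolic counterpart of SHMT2, had overlapping groups and a log2 fold change of 0.07 (95% interval -0.06 to 0.21, adjusted p = 0.345). SHMT1 had mean levels of 27.4 and 28.8 CPM, and its span overlaps SMCR8, with 195.8 CPM in siControl and 151.8 CPM in siKMT9α#1. The part of this overlap in the value for SHMT1 was not tested.

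Downstream of SHMT2 in the mitochondrion, MTHFD2 and MTHFD1L, which act on the one-carbon unit, rose. MTHFD2, the dehydrogenase and cyclohydrolase, had 393.3, 408.7 and 383.6 CPM in siControl and 546.3, 544.1 and 530.7 CPM in siKMT9α#1. The groups stood apart, and MTHFD2 rose by 0.45 (standard error 0.05, adjusted p = 3.89e-08). The row with the most counts for MTHFD2 was a noncoding RefSeq record, NR_027405, and its other transcript gave the same log2 fold change to 2 decimals. MTHFD1L, which releases formate to the cytosol, rose by 0.50 (adjusted p = 1.29e-07). One of its 4 listed transcripts, the short NM_001242769, had a log2 fold change of 0.12 (adjusted p = 0.292). The cytosolic MTHFD1 had overlapping groups and a log2 fold change of 0.04 (95% interval -0.06 to 0.13, adjusted p = 0.491).

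ALDH1L2, the mitochondrial enzyme that burns the one-carbon unit to CO2 while making NADPH, had the largest rise. It had 27.5, 26.1 and 24.6 CPM in siControl and 57.5, 62.0 and 67.3 CPM in siKMT9α#1. No siKMT9α#1 sample came near the siControl samples, and ALDH1L2 rose by 1.26 (standard error 0.07, adjusted p = 2.77e-12). Among all genes tested, 6.55% had a higher log2 fold change. The ratio of SHMT2 to MTHFD2 per kilobase, chosen after the values were seen, was 0.670 to 0.701 in siControl and 0.177 to 0.183 in siKMT9α#1. That of ALDH1L2 to SHMT2 was 0.0278 to 0.0315 in siControl and 0.181 to 0.216 in siKMT9α#1. Neighbouring steps of the same mitochondrial route therefore differed in direction, SHMT2 lower and MTHFD2, MTHFD1L and ALDH1L2 higher.

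The 11 cytosolic synthetases, which charge tRNAs with their amino acids, were mostly lower, with 9 that fell, 1 that rose and 1 that did not pass. Among all genes tested, 38.5% fell and 37.1% rose. CARS, the cysteinyl-tRNA synthetase, had 188.7, 199.2 and 199.1 CPM in siControl and 113.5, 118.8 and 118.0 CPM in siKMT9α#1. The groups did not overlap, and CARS fell by 0.74 (standard error 0.05, adjusted p = 3.58e-11). SARS, for serine, had 420.2, 431.9 and 436.7 CPM in siControl and 265.6, 269.4 and 263.3 CPM in siKMT9α#1. SARS fell by 0.69 (standard error 0.05, adjusted p = 4.89e-11). Its second transcript, the noncoding record NR_034072, had a log2 fold change of -0.26.

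WARS, for tryptophan, was the third synthetase past the study's threshold, with a log2 fold change of -0.49 (adjusted p = 9.74e-09). Of the rest, EPRS, GARS, LARS, NARS, TARS and YARS fell by an adjusted p under 0.05, with log2 fold changes of -0.48 for EPRS, the joint glutamyl and prolyl enzyme, to -0.10 for TARS, the threonyl enzyme. TARS, with an adjusted p of 0.0434, lost its call in 11 of 16 alternatives, the omission of any single sample among them. IARS, for isoleucine, was the synthetase that rose, by 0.24 (adjusted p = 0.000113). With library size alone IARS had a value of 0.13. With offsets for GC content and length it had 0.09, and it lost its call when the replicate block was added to them (0.09, adjusted p = 0.0821). AARS, for alanine, had groups that did not overlap, but its log2 fold change of -0.06 did not pass (95% interval -0.15 to 0.03, adjusted p = 0.222). With library size alone AARS passed, at -0.17 (adjusted p = 0.00221).

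**Figure D3:**
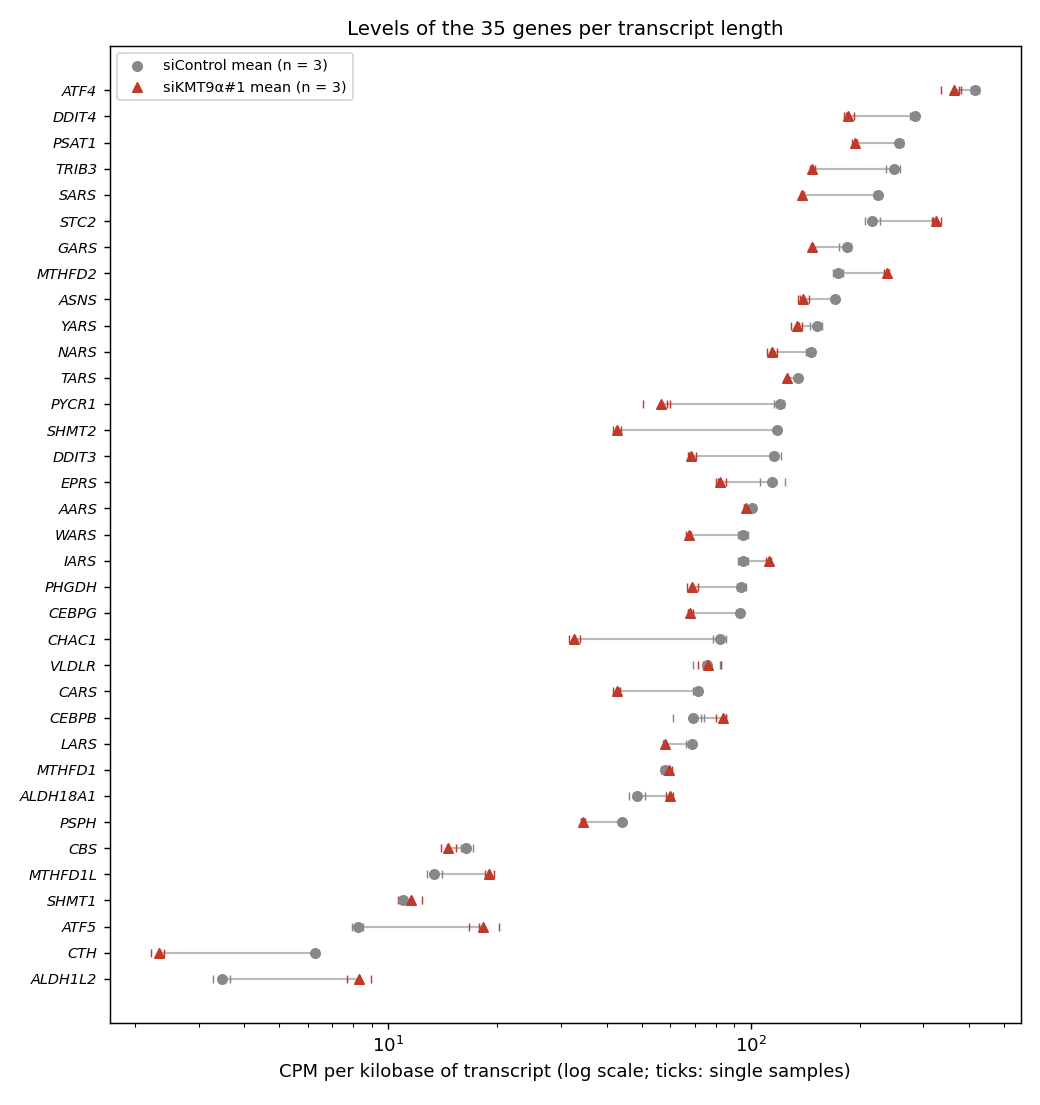
Level of the 35 genes in CPM per kilobase of transcript (log axis), as the siControl mean (grey circles) and the siKMT9α#1 mean (red triangles) of 3 samples, in order of the siControl level, with single samples as ticks. ATF4 is first in both groups, at 416.3 and 364.3, and the lowest siControl levels are those of ATF5, CTH and ALDH1L2.

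Levels of different genes were compared per kilobase of the listed transcript. ATF4 was the most abundant of the 35 in siControl, at 416.3 CPM per kilobase, and remained first in siKMT9α#1, at 364.3. STC2 moved from the sixth place, at 216.9 CPM per kilobase, to the second, at 323.8. MTHFD2 moved from 174.2 to 238.3 CPM per kilobase and SHMT2 from 118.5 to 42.7, so that SHMT2 went from rank 14 to rank 27. ALDH1L2 was the last in siControl, at 3.48 CPM per kilobase, and CTH the last in siKMT9α#1, at 2.32. The large fold changes of ALDH1L2, CTH and ATF5 were thus changes of genes with low levels.

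Summed per kilobase, the 11 synthetases had 1373.9 to 1398.4 CPM per kilobase in siControl and 1114.5 to 1128.7 in siKMT9α#1. The 9 enzymes of serine and one-carbon metabolism had 770.8 to 776.6 in siControl and 674.8 to 678.3 in siKMT9α#1. The sums of the other 3 roles were lower as well, without overlap of the groups. Sums follow their most abundant members, so the rise of ALDH1L2 hardly enters the sum of its role.

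Related genes that were not among the 35 were counted by the same rules. The counts of each list stand beside 38.5% lower and 37.1% higher among all genes tested. A list of genes upstream of ATF4 held the eIF2α kinases, eIF2α phosphatases, eIF2 and its exchange factor eIF2B. It also held GCN1L1, IMPACT, OMA1 and KIAA0141, which was listed as DELE1 as well. Of its 20 tested genes (22 listed), 12 fell, 4 rose and 4 did not pass, with a median of -0.29. EIF2B1, EIF2B3, EIF2B4, EIF2B5 and KIAA0141 were among the falls. EIF2AK3, which encodes PERK, the kinase of the endoplasmic reticulum, had 103.1 ± 8.70 CPM (SD, n = 3) in siControl and 34.9 ± 2.23 CPM (SD, n = 3) in siKMT9α#1, a log2 fold change of -1.56. EIF2AK2, the kinase for double-stranded RNA, had a log2 fold change of -1.11, and EIF2AK4, which encodes the amino acid sensor GCN2, had -0.84. The largest rises were those of EIF2S3 (0.28), a subunit of eIF2, of PPP1R15A (0.27), the stress-induced phosphatase subunit GADD34, and of EIF2AK1 (0.24), the heme-regulated kinase. The kinases of eIF2α were thus not changed in 1 direction. mRNA levels say nothing of their activity, and phosphorylated eIF2α and the ATF4 protein were not analysed here.

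Of 24 further tested targets of ATF4 or CHOP (28 listed, PPP1R15A in this list as well), 15 fell, 8 rose and 1 did not pass, with a median of -0.30. ERO1A and KDM7A were listed under their older names as well. NUPR1, a small stress-induced chromatin protein, had 96.4 ± 5.44 CPM (SD, n = 3) in siControl and 15.0 ± 0.763 CPM (SD, n = 3) in siKMT9α#1, a log2 fold change of -2.69. PCK2, the mitochondrial phosphoenolpyruvate carboxykinase, had -1.46, and SLC1A4, a transporter of neutral amino acids that include serine, had -1.28. In the other direction, ATF3, a stress-induced transcription factor, had 64.7 ± 5.95 CPM (SD, n = 3) in siControl and 156.3 ± 0.420 CPM (SD, n = 3) in siKMT9α#1, a log2 fold change of 1.27. TNFRSF10B, which encodes the death receptor DR5, rose by 1.22, and XPOT, the export receptor for tRNAs, rose by 0.79. DDIT3 and the CHOP target TNFRSF10B therefore changed in opposite directions.

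Of 12 genes for other cytosolic synthetases and their scaffold proteins, 11 fell and 1, KARS, did not pass (adjusted p = 0.0507), with a median of -0.58. Their largest falls were those of EEF1E1 (-1.19), a scaffold protein, and of FARSB (-1.11) and FARSA (-0.97), the subunits of the phenylalanyl enzyme. Over the 20 cytosolic synthetase genes of both lists, 17 fell, 1 rose and 2 did not pass, with a median of -0.47. At the study's threshold 9 were lower, against 10.7% of all genes tested. Of 17 mitochondrial synthetases, 8 fell, 5 rose and 4 did not pass, with a median of -0.12. TARS2 (-1.40), NARS2 (-0.90) and AARS2 (-0.57) had the largest falls, and HARS2 (0.93), VARS2 (0.52) and MARS2 (0.44) the largest rises. The difference between the cytosolic and the mitochondrial synthetases was not tested.

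**Figure D4:**
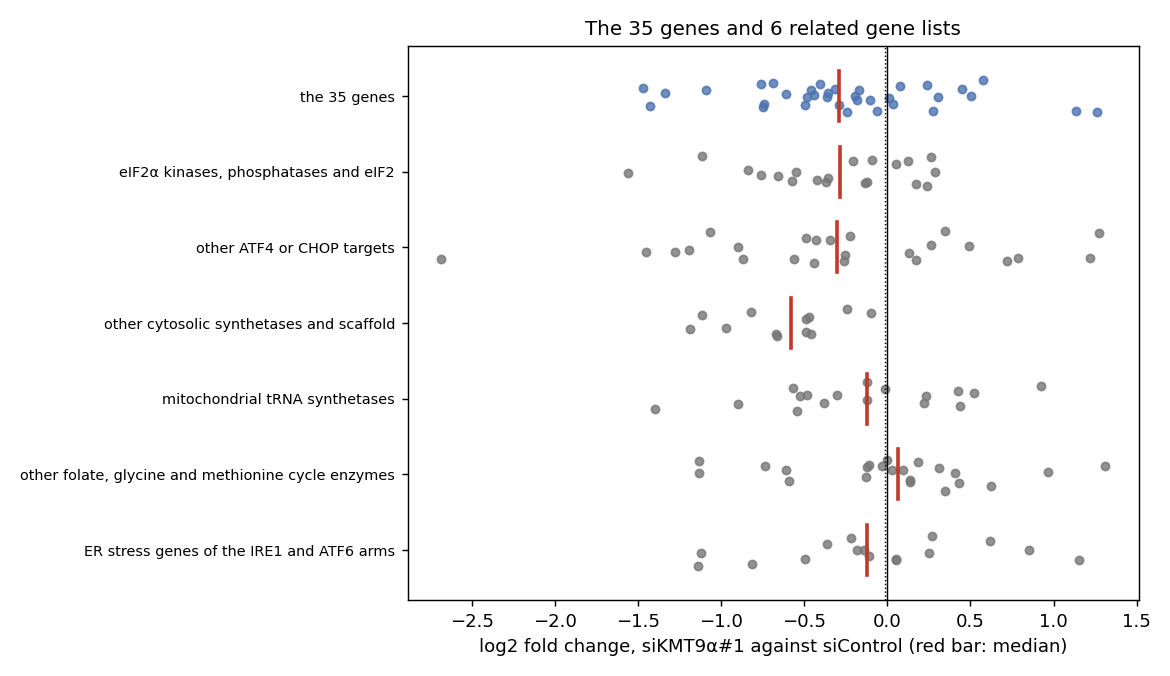
Log2 fold change of siKMT9α#1 against siControl for each gene tested in the 35 and in 6 related lists, with the list median as a red bar and the median of all genes tested as a dotted line. The median of the other cytosolic synthetases, -0.58, lies farthest to the left, and every list except that one holds points on both sides of 0.

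Of 22 further tested genes of the folate, glycine and methionine cycles (25 listed), 8 rose, 7 fell and 7 did not pass, with a median of 0.06. TYMS, thymidylate synthase, had 36.7 ± 1.44 CPM (SD, n = 3) in siControl and 91.3 ± 1.30 CPM (SD, n = 3) in siKMT9α#1, a log2 fold change of 1.31. GLDC, the glycine decarboxylase of the cleavage system, rose by 0.97 and MTHFD2L, the paralog of MTHFD2, rose by 0.62. The largest falls were those of SFXN3 (-1.14), a sideroflexin of the mitochondrial membrane, of DLD (-1.14), the shared dehydrogenase of the cleavage system, and of MTRR (-0.74), the reductase that keeps methionine synthase active. Of 16 genes of the IRE1 and ATF6 arms of endoplasmic reticulum stress, 8 fell, 5 rose and 3 did not pass, with a median of -0.13. DNAJB9 (-1.14), HERPUD1 (-1.12) and XBP1 (-0.81) had the largest falls, and DNAJC3 (1.16), ERN1 (0.85) and PDIA4 (0.62) the largest rises.

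Members with and without the element in the promoter were set side by side as a description. Of the 10 with it, 7 fell, 2 rose and AARS did not pass, with a median log2 fold change of -0.31 and a range of -1.34 for CHAC1 to 0.50 for MTHFD1L. Of the 19 with a searched promoter and no match, 11 fell, 5 rose and 3 did not pass, with a median of -0.19. Both kinds held genes of either direction. Over all genes tested, 38.5% fell and 37.1% rose, with a median of -0.01. The difference between the 2 kinds was not tested. IARS and CARS hold the same letters of the element, and IARS rose while CARS fell.

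Off-target matches of an siRNA guide can lower transcripts through its seed. The 7 bases complementary to guide bases 2 to 8 of siKMT9α#1 occurred in the annotated 3′ UTR of 2 of the 35 genes, ALDH1L2, which rose, and CARS, which fell. The other 33, among them SHMT2, CTH, CHAC1 and PYCR1, had no such match and a median log2 fold change of -0.29. Over all 12855 genes tested that had a UTR sequence, 2148 had the match, with a median of -0.15 against 0.01 without it. Shorter seed matches, matches outside the 3′ UTR and matches of the other siRNA strand were not searched. The part of off-target matches in these changes was not tested.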

How the data were processed

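RNA-seq was analysed for 6 A549 samples, 3 with siControl and 3 with siKMT9α#1. Reads had been aligned by the authors with STAR (hg19) and assigned to RefSeq transcripts with HOMER. The deposited values are estimated counts per transcript without normalization, in steps of 0.5. Columns of the authors' edgeR comparison (fold change, p-value, adjusted p) were not used. The library type and counting options are not given in the sources used here. Groups and replicate numbers came from the labels. The labels call the samples biological replicates and do not describe how the cultures were separated.

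Rows without a symbol and counts (1182 of 38767) were left out. For each symbol the transcript with the most counts over the 6 samples was kept, since exons shared between transcripts are counted repeatedly. Totals on that basis were 13740098 to 19832394.5 per sample. Rounded counts entered edgeR 4.0.16 under R 4.3.3 (TMM normalization, filterByExpr, quasi-likelihood F test, two-sided, Benjamini-Hochberg adjustment over 13877 genes). "Rose" and "fell" mean an adjusted p under 0.05. The biological coefficient of variation was 4.47%. For a single gene, a two-sided exact permutation test of 3 against 3 cannot go below 0.1, which was the value for each gene whose groups did not overlap.

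The members and lists were chosen with earlier results of these data known, and all members are named. Some marker values are not reported here. Sample values are given for members past the study's threshold with groups that do not overlap, for the 8 largest changes in each direction (4 were available among the higher genes), and for ATF4, DDIT3, ASNS and PHGDH. In each other list the 3 largest changes in each direction are named. GC content, length and UTRs came from a GRCh37 annotation, and promoters from RefSeq (GRCh38.p14). Same-numbered samples were not paired: their deviations from the group means correlated at -0.0788, 0.0221 and -0.0803. Alternatives were RLE factors, library size alone, omission of the filter, a minimum of 10 counts in every sample, the likelihood-ratio test, DESeq2 1.42.0, every transcript, a replicate block, GC and length offsets with and without the block, and each sample left out.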

Additional observations from a re-analysis of the deposited data

How the results depend on the processing

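Over 16 alternatives, 7 to 8 of the 35 genes were higher and 20 to 24 were lower by an adjusted p under 0.05, against 8 and 23. Of 560 single-gene values, 0 reversed a call, 19 lost one and 1 gained one, and 30 genes kept theirs throughout. The calls that changed were those of TARS (11 alternatives), CBS (5), ATF4 (2), IARS (1) and AARS (1, with library size alone). The median log2 fold change of the 35, -0.29, was -0.28 with RLE factors, -0.28 without the filter, -0.31 with at least 10 counts in every sample, -0.28 in DESeq2, and -0.24 with GC and length offsets, with or without the replicate block. With library size alone it was -0.40, where the median of all genes moved from -0.01 to -0.12. Leaving out 1 sample gave -0.32 to -0.27. At the study's threshold, the 4 higher genes became 2 with library size alone, 2 with the replicate block and 2 to 4 when 1 sample was left out (2 without siControl replicate 2, siControl replicate 3 or siKMT9α#1 replicate 2). They became 3 with at least 10 counts in every sample, 5 with the likelihood-ratio test and in DESeq2, and 6 without the filter and with GC and length offsets, with or without the block. The 11 lower genes became 17 without the filter, 18 with the likelihood-ratio test, 17 in DESeq2, 15 with library size alone, 13 with GC and length offsets (12 with the block), and 8 to 12 when 1 sample was left out. Over all genes tested, the lower count at that threshold moved as well, from 1479 to 2886 without the filter, 2876 with the likelihood-ratio test, 2076 in DESeq2, 1862 with library size alone and 974 with the replicate block. The replicate block, which pairs samples that share only a number, gave 8 higher and 22 lower genes by adjusted p, and 2 higher and 8 lower at the study's threshold. The cause of these shifts was not tested.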
